A study of Mus musculus with 4 samples.

Results

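Nucleases degrade self DNA and RNA before these molecules reach the sensors of innate immunity. The 10 genes described here encode such enzymes and were listed by name for their link to lupus and to interferonopathies, which are inherited diseases with constant interferon production. They were found by symbol among 54532 genes counted in mouse kidney: Dnase1, Dnase1l1, Dnase1l3, Dnase2a, Trex1, Samhd1, Rnaseh2a, Rnaseh2b, Rnaseh2c and Rnaset2b. Dnase1 was chosen by its lower counts in Zbp1-KO kidneys in these same libraries, so its difference between genotypes is given as a description, with no p, although the gene was part of the fit over all genes. DNA released by dying cells is cut outside cells by DNase1 and its relatives, DNA taken up by phagocytes is cut in lysosomes by DNase2, and DNA that stays in the cytosol is cut by TREX1. RNase H2 removes RNA from RNA-DNA hybrids, RNase T2 degrades RNA in lysosomes, and loss of several of these enzymes is known to provoke signalling through cGAS-STING or Toll-like receptors. In kidney, filtered and locally shed DNA meets secreted DNase1, which this organ is known to make in large amounts.

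RNA-Seq counts of whole kidney were compared between WT mice and Zbp1-KO mice, with 2 libraries per genotype and 4 in all. Zbp1 encodes a protein that binds Z-form nucleic acids, and the comparison addressed how its loss alters gene expression during lupus-like disease. All mice were female C57BL/6J and all received 500 µL pristane, an oil used to bring on lupus-like autoimmunity, by intraperitoneal injection at 8 weeks, with kidneys taken 8 months later. The knockout carried a CRISPR-Cas9 deletion of Zbp1 exons 2 to 8 and came as 1 commercial strain, whereas the WT mice were purchased from another supplier and are not described as littermates. Both genotypes had pristane in the libraries used here, so no comparison with kidneys free of pristane was made. The samples are numbered kidneys of each genotype, and p-values measure the spread between these libraries only.

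Zbp1 was examined first and had 94 and 125 counts in WT against 18 and 0 counts in Zbp1-KO, so both knockout libraries lay below both WT libraries, as labelled. Total counts ran from 9878776 to 12921925 per library, of which 49.5% to 61.5% came from mitochondrially encoded genes. Levels are given as CPM, counts divided by a library size that the TMM method of edgeR had scaled, and 3 counts, the limit set for a gene with 0 counts, equal 0.221 to 0.323 CPM. The limit covers counting error only. After a filter on low counts 14908 genes were tested with the quasi-likelihood test of edgeR. Of them 2 (0.0134%) had an adjusted p under 0.05, Cfd and Lars2, neither of them a nuclease. Zbp1, the deleted gene, did not reach this threshold. The test put it at −3.64 on the log2 scale, Zbp1-KO over WT, at an unadjusted p of 0.00153 and an adjusted p of 0.999. A gene not called in this fit may therefore still differ between genotypes. The kidney label was checked against its markers, with Slc34a1 of the proximal tubule at 529 to 1032 CPM, Umod of the thick ascending limb at 205 to 383 CPM and Slc12a3 of the distal convoluted tubule at 495 to 823 CPM. Adipocyte markers were higher in both Zbp1-KO libraries, with summed levels of 80.3 and 110 CPM in WT against 230 and 190 CPM in Zbp1-KO. Of 6 tested genes 6 were higher at an unadjusted p under 0.05 in edgeR, against 1.91% of all genes tested. Cfd, called above, is on this list, and Lep was at 0 in every library. All of these are bulk values, in which fewer cells of a type and less RNA per cell cannot be told apart.

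Dnase1 had the highest level per kb of the 9 tested genes in both WT libraries, and its lower level in the Zbp1-KO libraries is what selected it. Dnase1 encodes the secreted endonuclease of body fluids, and its gene (ENSMUSG00000005980) lies on chromosome 16 from 4036942 to 4040024 on the plus strand in GRCm38. It had 1391 and 1283 counts in WT against 545 and 529 counts in Zbp1-KO. These counts correspond to 112 and 110 CPM in WT and to 40.2 and 57.0 CPM in Zbp1-KO. The genotypes did not overlap, the WT libraries were nearly equal, and the Zbp1-KO libraries differed from each other by more than the WT libraries did. The means were 110.8 ± 1.51 CPM in WT against 48.6 ± 11.9 CPM in Zbp1-KO (n = 2 per genotype, SD), a ratio of 0.438. Its log2 fold change, Zbp1-KO over WT, was −1.19 ± 0.21 (SE), and no p is given because this value selected the gene. A lower log2 fold change was found in 450 of all 14908 genes tested, and in 15 of the 8207 of at least 10 CPM on average.

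Dnase1 made up 46.4% and 49.9% of the summed CPM of the 9 tested nucleases in WT, and 25.2% and 31.5% in Zbp1-KO. Summed over these 9 genes, the level was 241 and 220 CPM in WT against 159 and 181 CPM in Zbp1-KO. Without Dnase1, the sum of the other 8 was 129 and 110 CPM in WT against 119 and 124 CPM in Zbp1-KO, and the genotypes overlapped. The difference in the summed level thus lay in Dnase1, the gene selected on it.

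**Figure D1:**
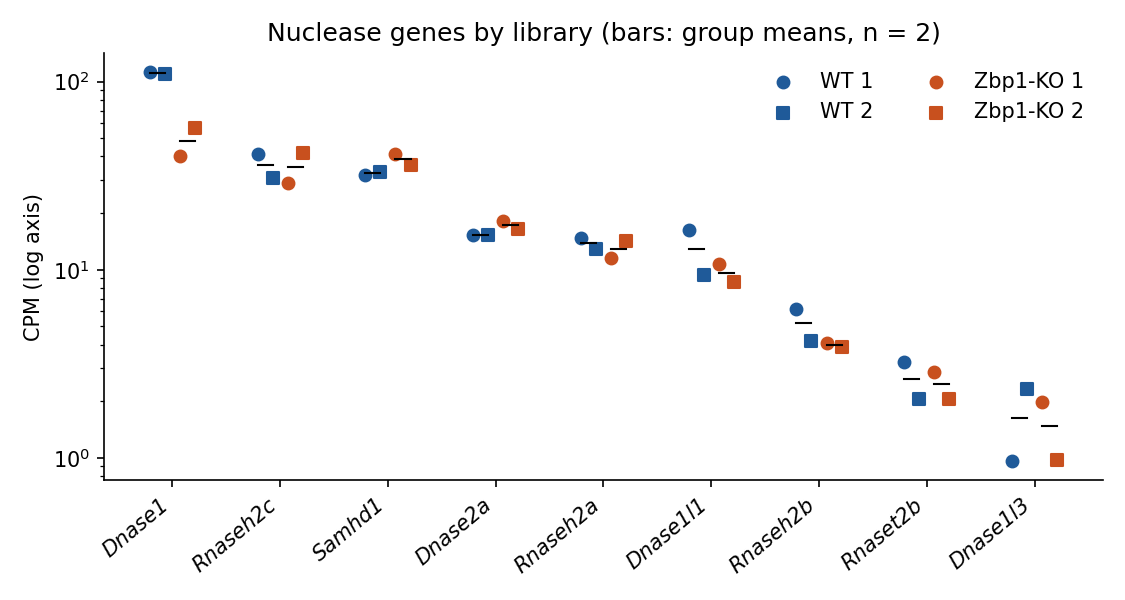
Levels of the 9 tested nucleases in CPM on a log axis, with circles for replicate 1 and squares for replicate 2, blue for WT, orange for Zbp1-KO and bars for the group means (n = 2). Dnase1 stands at 112 and 110 CPM in WT against 40.2 and 57.0 CPM in Zbp1-KO, and 5 of the other 8 genes overlap between genotypes. Over all genes tested, both Zbp1-KO libraries lie below both WT libraries in 16.3% and above in 16.0%. Trex1 is left out because it had 0 counts.

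The start of Dnase1 was inspected because it is the member whose level differed most. The stretch before the first GENCODE transcript start, chr16:4036786-4036941 on the plus strand (GRCm38.p6, from the RefSeq promoter windows), is printed 5′ to 3′. The match to a TATA box, searched as TATAAA on either strand, is in capitals. It is on the reverse strand and reads TTTATA here.
Dnase1 promoter: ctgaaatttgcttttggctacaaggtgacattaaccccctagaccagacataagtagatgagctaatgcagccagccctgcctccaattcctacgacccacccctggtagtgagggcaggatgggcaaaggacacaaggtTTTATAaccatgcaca
The last base of this match lies 11 bases before the first GENCODE start of Dnase1, at chr16:4036942. The RefSeq starts on which the Dnase1 windows are set lie further downstream. Promoter windows of 300 bases, from 250 before to 50 after a start, were given for 8 of the 10 genes (11 windows), and Dnase1l3 and Rnaseh2b were not among them. TATAAA was found on either strand in 13.6% of all 32851 promoter windows, and among the 8 genes only in Dnase1. Its windows also held the E-box CACGTG (7.2% of all windows), at chr16:4036996-4037001. This lies downstream of the first GENCODE start but upstream of the RefSeq starts on which the windows are set. Each Dnase1 window held 4 CpG dinucleotides, against a median of 7 over all windows. The windows of Trex1 held 7 and 5, Rnaseh2c 9, Dnase1l1 10 and 11, Dnase2a 22, Rnaseh2a and Rnaset2b 23, and Samhd1 29. TTCNNNGAA, the core of a STAT site (8.3% of all windows), was found in Samhd1 and Rnaseh2a, and the interferon response element, searched as GAAA followed after 2 bases by another GAAA (3.4%), in none of the 8. Such matches describe letters in these windows and not binding.

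Dnase1 overlaps genes on the opposite strand, and the counts show how such bases were treated. Of 35 protein-coding genes whose exon bases were all shared with genes of the opposite strand only, 35 (100%) had 0 counts in every library. For genes whose exon bases were all shared with a gene of the same strand, 132 of 133 (99.2%) had 0 counts. In contrast, 4896 of 15538 protein-coding genes (31.5%) that shared no exon base were at 0. Bases shared between genes of either strand thus gave almost no counts to either gene. Of the 3083 exon bases of Dnase1, 504 are shared with the antisense gene Gm15879 and 54 with Trap1, which leaves 2525 bases (81.9%) of its own.

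Gm15879 was named after its values were seen, since it overlaps Dnase1. It had 100 and 98 counts in WT against 170 and 133 in Zbp1-KO, or 8.04 and 8.38 CPM against 12.5 and 14.3 CPM. Both Zbp1-KO libraries lay above both WT libraries, opposite to Dnase1. In edgeR its log2 fold change of 0.71 ± 0.32 (SE) had an unadjusted p of 0.0501 and was not called (adjusted p = 0.999). The ratio of Dnase1 to Gm15879 counts was 13.9 and 13.1 in WT against 3.21 and 3.98 in Zbp1-KO. The 519 exon bases that Gm15879 has to itself end 2266 bases before Dnase1 begins, so its counts and those of Dnase1 came from separate bases. The shared stretch, chr16:4037344-4037847, holds 147 of the 852 coding bases of transcript Dnase1-201. Trap1, which encodes a mitochondrial chaperone, measured 83.6 and 78.4 CPM in WT against 78.4 and 81.0 CPM in Zbp1-KO, with a log2 fold change of −0.02 ± 0.18 (SE). In all, 10 tested genes lay within 200 kb of Dnase1, with log2 fold changes from −1.19 ± 1.21 (SE, Zfp174) to 0.71 (Gm15879). At an unadjusted p under 0.05 in edgeR there were 0 of them, against 3.88% of all genes tested.

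The genes with the pattern most like that of Dnase1 were found among the other 8206 genes of at least 10 CPM on average. Likeness was measured as the root mean square difference of log2(CPM + 1), centred on each gene's mean, over the 4 libraries. The nearest was Adap1, an Arf GTPase-activating protein, with a difference of 0.144 and levels of 20.3 and 16.8 CPM in WT against 6.56 and 7.54 CPM in Zbp1-KO. Klf9, a transcription factor known to respond to glucocorticoids, followed at 0.163, with 21.2 and 20.4 CPM against 7.96 and 13.9 CPM. The next were Slc25a25, a mitochondrial carrier of ATP-Mg and phosphate, at 0.167, Nudt12, a hydrolase of NADH, at 0.168, and Rasal1, a Ras GTPase-activating protein, at 0.184. In each of the 5 genes both Zbp1-KO libraries lay below both WT libraries, which the measure of likeness favours.

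**Figure D2:**
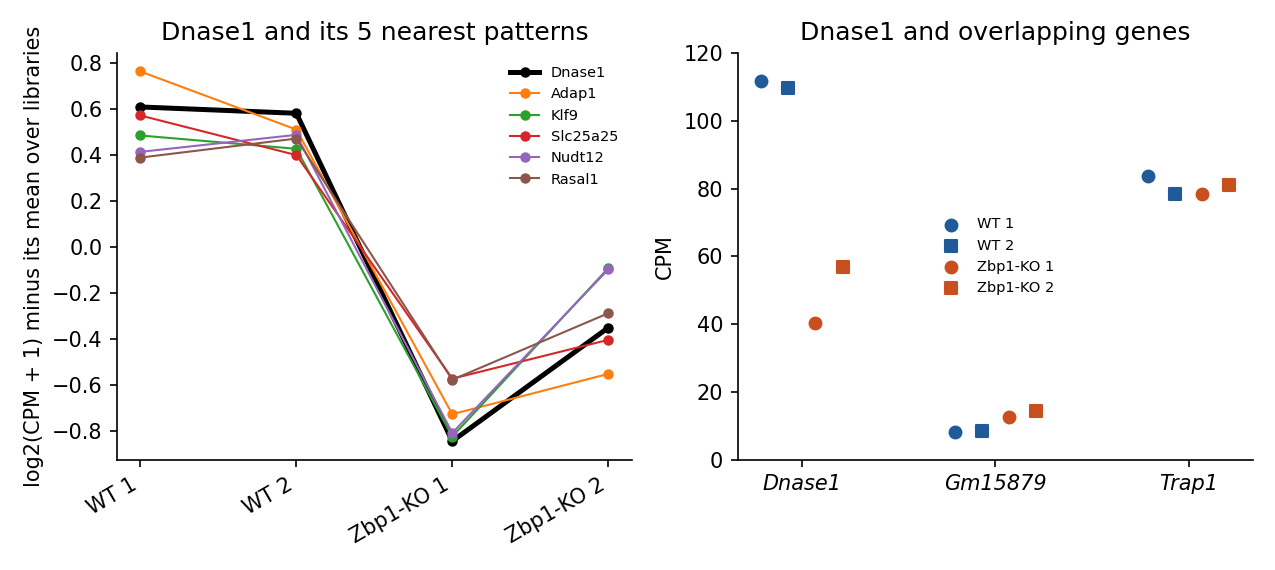
Left, log2(CPM + 1) minus its mean over the 4 libraries for Dnase1 (black) and the 5 genes of nearest pattern, with lines that only join the points of a gene. Right, CPM of Dnase1, Gm15879 and Trap1 by library (circles for replicate 1, squares for replicate 2), where Dnase1 is lower in both Zbp1-KO libraries, Gm15879 is at 8.04 and 8.38 in WT and at 12.5 and 14.3 in Zbp1-KO, and Trap1 is between 78.4 and 83.6.

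Levels of kidney cell types were set beside Dnase1, and their part in its level was not tested. Summed proximal tubule markers (8 of 8 tested) were 3227 and 2920 CPM in WT against 2437 and 3089 CPM in Zbp1-KO, and the genotypes overlapped. Markers of the thick ascending limb summed to 1421 and 1208 CPM in WT against 1669 and 1135 CPM in Zbp1-KO. The distal convoluted tubule list gave 598 and 954 CPM against 772 and 883 CPM. Principal cell markers (4 of 5 tested) were the nephron list in which both Zbp1-KO sums lay below both WT sums, with 1160 and 1314 CPM against 971 and 737 CPM. Aqp2, the water channel under vasopressin control, made up most of these sums, at 903 and 1061 CPM against 730 and 530 CPM. Aqp2 and Aqp3 had log2 fold changes of −0.64 and −0.58 with unadjusted p-values of 0.00866 and 0.0247 in edgeR. Fxyd4 and Scnn1g overlapped between genotypes, at −0.03 and −0.23. In other nephron lists, Slc22a6 of the proximal tubule and Pvalb of the distal convoluted tubule were also lower. Their log2 fold changes were −0.49 and −0.70, with unadjusted p-values of 0.0479 and 0.0485 in edgeR. Other genes of these 2 lists went the other way, with log2 fold changes above 0 in 2 of 8 and 2 of 4. Calb1 of the distal convoluted tubule was at 0.33 ± 0.20 (SE), with both Zbp1-KO libraries above both WT libraries. Of all genes tested, 1.97% were lower at an unadjusted p under 0.05. None of the nephron genes named here was called. Intercalated cell markers were 133 and 119 CPM in WT against 120 and 133 CPM in Zbp1-KO. Podocyte markers were higher in both Zbp1-KO libraries, with 102 and 104 CPM in WT against 129 and 150 CPM in Zbp1-KO. Of these 5 genes 1 was higher at an unadjusted p under 0.05 in edgeR, against 1.91% of all genes tested. Markers of tubular injury were 623 and 553 CPM against 626 and 487 CPM.

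The other enzymes that cut DNA outside cells or in lysosomes were less abundant. Dnase1l1 encodes a membrane-anchored relative of DNase1 and lies on chromosome X from 74273217 to 74282337 on the minus strand. It had 202 and 110 counts in WT against 145 and 80 in Zbp1-KO, or 16.2 and 9.41 CPM against 10.7 and 8.62 CPM. The WT libraries differed more from each other than the genotypes did, and the log2 fold change of −0.41 ± 0.36 (SE) had a 95% interval from −1.19 to 0.38. Dnase1l3 (chromosome 14, 7964533 to 7994573, minus strand) encodes the DNase that digests chromatin in microparticles from dying cells, and its human loss causes familial lupus. It had 12 and 27 counts in WT against 27 and 9 in Zbp1-KO, which correspond to 0.965 and 2.31 CPM against 1.99 and 0.969 CPM. The order of the libraries was crossed, and at this depth the interval of its log2 fold change (−0.13 ± 1.04, SE) ran from −2.41 to 2.15, so that a difference of several fold either way was not detectable. Dnase2a (chromosome 8, 84908560 to 84922915, plus strand) encodes the acid DNase of lysosomes. It had 190 and 179 counts in WT against 245 and 153 in Zbp1-KO, or 15.3 CPM in each WT library against 18.1 and 16.5 CPM. Both Zbp1-KO libraries lay slightly above both WT libraries, with a log2 fold change of 0.18 ± 0.27 (SE) and an interval from −0.41 to 0.76.

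Trex1 had 0 counts in every library, and this value carries no information on its level. It encodes the exonuclease that degrades DNA in the cytosol, and its loss activates cGAS-STING. All 1147 of its exon bases (chromosome 9, 109057933 to 109059734, minus strand) are also exon bases of Atrip, a gene of the same strand, and 132 of the 133 protein-coding genes in this position were at 0. The start of its coding sequence is shown because the same bases are part of Atrip transcripts, from chr9:109058862-109058921 on the minus strand (GRCm38, GENCODE M21).
Trex1 coding start: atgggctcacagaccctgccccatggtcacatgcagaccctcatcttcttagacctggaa
These 60 bases were found in 3 of the 9 Atrip transcripts, and the whole coding sequence of 942 bases in 2. Atrip, which encodes the partner of the checkpoint kinase ATR, had 112 and 126 counts in WT against 88 and 107 in Zbp1-KO, with a log2 fold change of −0.14 ± 0.39 (SE). Its pairs come from bases outside Trex1 and give no estimate for it.

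Samhd1 encodes the enzyme that breaks down deoxynucleoside triphosphates and restrains the release of self DNA into the cytosol. It lies on chromosome 2 from 157097533 to 157135265 on the minus strand, 16.1 Mb from Zbp1, and shares no exon base with another gene. It had 394 and 389 counts in WT against 559 and 334 in Zbp1-KO, or 31.7 and 33.3 CPM against 41.2 and 36.0 CPM. Both Zbp1-KO libraries lay above both WT libraries, but the Zbp1-KO libraries differed from each other by nearly as much as the genotype means did. The log2 fold change was 0.25 ± 0.21 (SE) with an interval from −0.21 to 0.71, and without Zbp1-KO replicate 1 it was 0.14. Samhd1 is itself interferon-inducible, and the part of interferon in its level was not tested. The 14 interferon-stimulated genes set beside it had a median log2 fold change of 0.40. Of these, 3 were higher at an unadjusted p under 0.05 (Rsad2, Oas2 and Usp18), against 1.91% of all genes tested. By edgeR, 0 of these 14 genes were called. Their summed levels overlapped, at 383 and 463 CPM in WT against 606 and 436 CPM in Zbp1-KO. Both Zbp1-KO libraries lay above both WT libraries for 7 of these genes, against 16.0% of all genes tested. Both lay below for 1, against 16.3%. This was Isg15, a ubiquitin-like modifier whose log2 fold change was −0.52 ± 0.32 (SE). For Isg15 the paper reports the reverse by qPCR, a rise in Zbp1-KO kidneys after pristane, with more mice per group. By the same qPCR it reports a rise of Oas2, which was also higher here, at 0.64 ± 0.20 (SE). From RNA-Seq of pristane kidneys, with its own list of such genes, the paper reports more of them up than down.

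**Figure D3:**
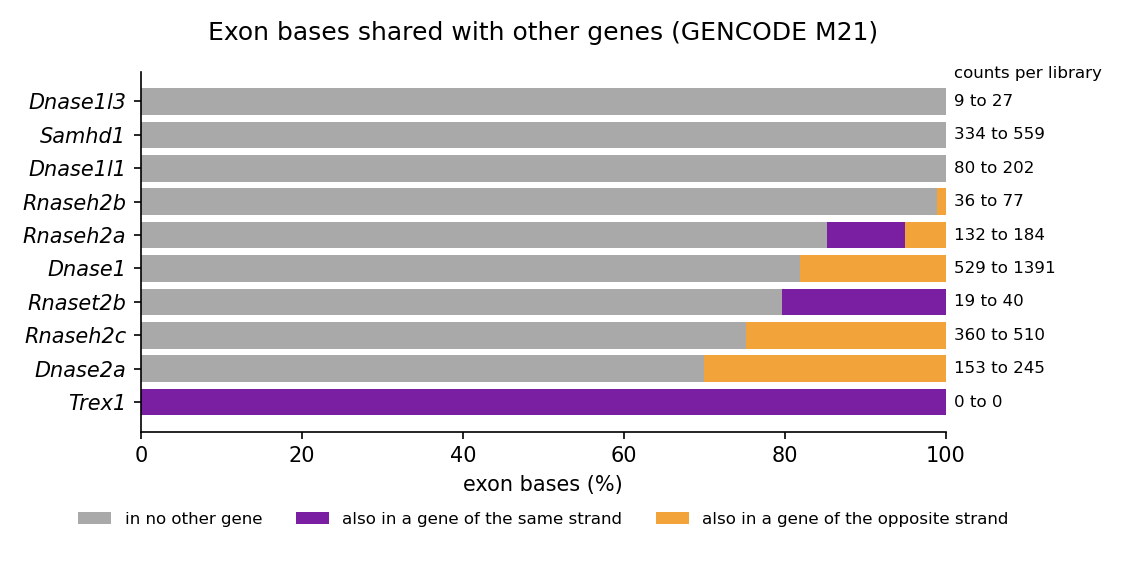
Share of the exon bases of each gene (GENCODE M21) that lie in no other gene (grey), in a gene of the same strand (purple) or in a gene of the opposite strand (orange), with the range of counts over the 4 libraries at the right. Trex1, with no base of its own, has 0 counts, and the other 9 genes keep at least 70.0% of their bases.

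The subunits of RNase H2 form a trimer, with the catalytic subunit encoded by Rnaseh2a and the accessory subunits by Rnaseh2b and Rnaseh2c, and variants in each cause Aicardi-Goutières syndrome. Rnaseh2a lies on chromosome 8 from 84956610 to 84969767 on the minus strand, Rnaseh2b on chromosome 14 from 62292589 to 62372992 on the plus strand and Rnaseh2c on chromosome 19 from 5601873 to 5607019 on the plus strand. Rnaseh2a had 184 and 150 counts in WT against 157 and 132 in Zbp1-KO, or 14.8 and 12.8 CPM against 11.6 and 14.2 CPM. The genotypes overlapped, and the log2 fold change of −0.10 ± 0.30 (SE) had an interval from −0.76 to 0.55. Rnaseh2b had 77 and 49 counts in WT against 55 and 36 in Zbp1-KO, or 6.19 and 4.19 CPM against 4.06 and 3.88 CPM. Both Zbp1-KO libraries lay below both WT libraries, but WT replicate 2 was close to them, and the log2 fold change of −0.39 ± 0.54 (SE), interval −1.56 to 0.79, became −0.09 without WT replicate 1. Rnaseh2c had 510 and 360 counts in WT against 391 and 387 in Zbp1-KO, or 41.0 and 30.8 CPM against 28.8 and 41.7 CPM. A lower and a higher level occurred in each genotype, and the log2 fold change was −0.03 ± 0.25 (SE), interval −0.57 to 0.51.

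Levels of the subunits were compared per kilobase of own exon. The level of Rnaseh2b relative to Rnaseh2a was 0.203 and 0.158 in WT against 0.170 and 0.132 in Zbp1-KO, and that of Rnaseh2c relative to Rnaseh2a was 6.44 and 5.57 in WT against 5.78 and 6.81 in Zbp1-KO. Both ratios overlapped between genotypes. Their size depends on the length used, and per kb of the longest coding transcript the mean level of Rnaseh2b was 3.07 against 4.48 for Rnaseh2a. Summed over the 3 subunits, the level was 62.0 and 47.8 CPM in WT against 44.5 and 59.8 CPM in Zbp1-KO, again with overlap. The Rnaseh2c value rests on 75.2% of its exon bases, since 426 are shared with Kat5 on the opposite strand.

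Rnaset2b encodes RNase T2, the lysosomal RNase that degrades engulfed RNA, and lies on chromosome 17 from 6970634 to 7011299 on the plus strand. Mouse has a near copy, Rnaset2a, on the same chromosome. The coding sequences of Rnaset2a-201 and Rnaset2b-201 both have 777 bases and differ at 0 of them. Their first 60 bases are shown to make this visible, from chr17:8147635-8147694 on the minus strand for Rnaset2a and chr17:6978998-6979057 on the plus strand for Rnaset2b (GRCm38, GENCODE M21).
Rnaset2a coding start: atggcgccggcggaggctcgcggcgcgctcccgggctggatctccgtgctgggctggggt
Rnaset2b coding start: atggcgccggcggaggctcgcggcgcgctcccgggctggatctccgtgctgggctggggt
Of 2299 windows of 150 bases, the read length, in transcript Rnaset2b-202, 1358 (59.1%) also occur in a Rnaset2a transcript. A pair that lies wholly in such bases maps to both genes and was not counted, so the counts of either gene are uncertain. Rnaset2b had 40 and 24 counts in WT against 39 and 19 in Zbp1-KO, or 3.22 and 2.05 CPM against 2.88 and 2.05 CPM. The log2 fold change was −0.09 ± 0.76 (SE), interval −1.75 to 1.56. Rnaset2a had 34 and 30 counts in WT against 27 and 16 in Zbp1-KO, with a log2 fold change of −0.51 ± 0.81 (SE). Summed, the pair had 5.95 and 4.62 CPM in WT against 4.87 and 3.77 CPM in Zbp1-KO, and the genotypes overlapped.

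Across the 9 nucleases tested, 0 were called by edgeR at an adjusted p under 0.05, against 0.0134% of all genes tested. Dnase1, the gene chosen by this contrast, is left out of the next count. At an unadjusted p under 0.05 in edgeR there were 0 of the other 8, among which the lowest unadjusted p was 0.254. Of all genes tested, 3.88% passed that threshold, 1.97% lower and 1.91% higher in Zbp1-KO. In 2 of the 9 genes both Zbp1-KO libraries lay below both WT libraries (Dnase1 and Rnaseh2b), as in 16.3% of all genes, and in 2 both lay above (Dnase2a and Samhd1), as in 16.0%. The remaining 5 overlapped. Log2 fold changes were below 0 in 7 of the 9 genes and above 0 in 2, whereas 7366 of all 14908 genes tested were above 0. This split rests on single libraries, since 4 were below 0 without WT replicate 1 and 5 without either Zbp1-KO library. The median was −0.10, against −0.01 over all genes tested. For 1 gene alone, the smallest two-sided p that an exact permutation of 2 against 2 libraries allows is 0.333.

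**Figure D4:**
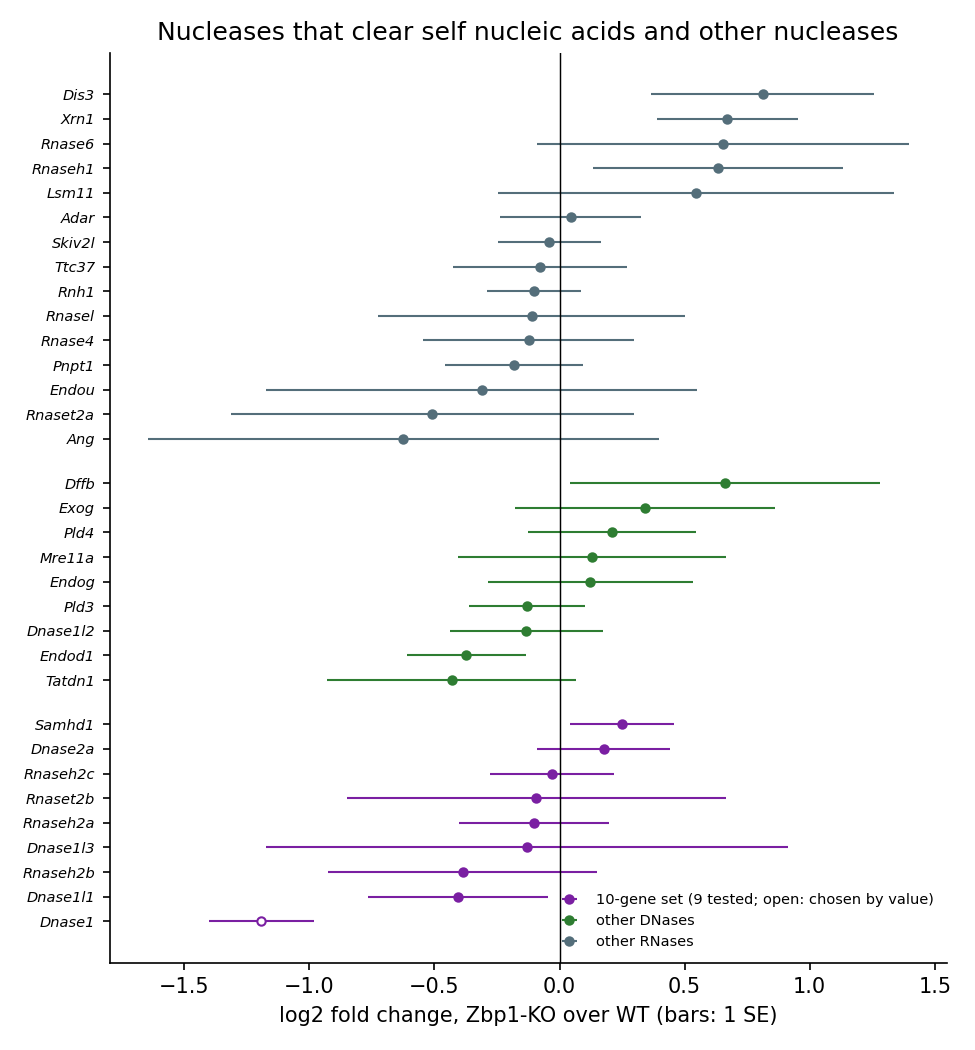
Log2 fold changes, Zbp1-KO over WT, with bars of 1 SE, for the 9 tested nucleases (purple), 9 other DNases (green) and 15 other RNases and RNA-processing genes (grey). Dnase1 (open circle, selected on this value) lies at −1.19, and the other 8 nucleases lie between −0.41 and 0.25.

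Levels of the nucleases were compared per kilobase of exon bases that no other gene shares. Dnase1 averaged 31.6 ± 14.5 CPM per kb and Rnaseh2c 27.6 ± 5.21 CPM per kb (SD over the 4 libraries), and their order turned with genotype. In WT, Dnase1 was the higher, at 44.3 and 43.5 against 31.8 and 23.9 CPM per kb for Rnaseh2c. In Zbp1-KO, Rnaseh2c was the higher in each library, at 22.4 and 32.3 against 15.9 and 22.6 CPM per kb for Dnase1, the gene selected on its lower counts there. Next came Dnase1l1 at 5.30 ± 1.62, Rnaseh2a at 4.46 ± 0.483, Dnase2a at 4.32 ± 0.348 and Samhd1 at 3.88 ± 0.457 CPM per kb, whose ranges overlap and whose order changed when the longest coding transcript was used as the length. Rnaseh2b at 0.741 ± 0.175 and Rnaset2b at 0.719 ± 0.167 CPM per kb overlapped on this scale. Per kb of the longest coding transcript they did not, with means of 3.07 (range 2.60 to 4.14) for Rnaseh2b and 1.04 (range 0.836 to 1.31) for Rnaset2b. Dnase1l3 was lowest at 0.303 ± 0.135 CPM per kb, and its highest library lay below the lowest library of every other tested member.

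Other DNases were examined as a wider list of 15 genes, of which 9 passed the filter. By edgeR, 0 of the 9 were called, 0 had an unadjusted p under 0.05, and their median log2 fold change was 0.12. The most abundant per kb were Pld3, a lysosomal exonuclease of single-stranded DNA, at 10.6 ± 1.53, and Endog, the mitochondrial endonuclease G, at 10.4 ± 1.12 CPM per kb (SD, 4 libraries). Dnase1l2, the closest relative of Dnase1 by name that passed the filter outside the 10 genes, measured 13.1 and 13.2 CPM in WT against 13.3 and 10.6 CPM in Zbp1-KO. Its log2 fold change was −0.13 ± 0.31 (SE). Dnase2b and Trex2, the relatives of Dnase2a and Trex1, had 0 counts in every library. Fen1, a flap endonuclease of replication, had at most 4 counts, but only 383 of its 2422 exon bases are unshared.

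The list of other RNases and RNA-processing genes held 16 genes, 15 of them tested, with a median log2 fold change of −0.08 and 0 called by edgeR. Xrn1, the cytoplasmic 5′ to 3′ exonuclease, was the only one with an unadjusted p under 0.05 (0.0353). It measured 11.9 and 10.6 CPM in WT against 17.8 and 18.1 CPM in Zbp1-KO, a log2 fold change of 0.67 ± 0.28 (SE), and both Zbp1-KO libraries lay above both WT libraries. Rnaseh1, the single-subunit RNase H, measured 3.70 and 4.19 CPM in WT against 6.12 and 6.14 CPM in Zbp1-KO, and its log2 fold change of 0.63 ± 0.50 (SE) was not called. The most abundant per kb were Rnh1, the RNase inhibitor, at 28.1 ± 2.35 and Skiv2l, an RNA helicase of the exosome, at 13.2 ± 1.75 CPM per kb.

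Sensors of the nucleic acids that these enzymes remove were the last genes set beside them. Of 12 sensor genes 10 were tested, with a median log2 fold change of 0.35. In edgeR 0 were called and 2 were higher at an unadjusted p under 0.05, against 1.91% of all genes tested. Tlr7, the endosomal sensor of single-stranded RNA, measured 1.05 and 1.11 CPM in WT against 5.31 and 5.60 CPM in Zbp1-KO, a log2 fold change of 2.33 ± 0.68 (SE). Cgas, the cytosolic sensor of DNA, measured 0.402 and 0.0855 CPM in WT against 2.06 and 2.15 CPM in Zbp1-KO, of which the WT values are at most a few counts. Genes for the uptake of dying cells (11 of 13 tested) had a median of 0.02 with 0 at an unadjusted p under 0.05, and cell division genes (8 of 9 tested) a median of −0.27 with 0.

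Several nucleases are known to be made by immune cells, so markers of those cells were counted, and their part in the nuclease values was not tested. Macrophage markers summed to 295 and 199 CPM in WT against 268 and 267 CPM in Zbp1-KO, and endothelial markers to 269 and 341 against 300 and 271 CPM. Dendritic cell markers were 9.17 and 13.3 CPM in WT against 11.3 and 15.5 CPM in Zbp1-KO. T cell markers were higher in both Zbp1-KO libraries, with 14.8 and 9.41 CPM against 26.8 and 20.4 CPM. For B and plasma cells the sums were 126 and 34.0 CPM against 49.4 and 62.3 CPM, and for neutrophils 25.1 and 5.13 CPM against at most 12.6 CPM, with Ly6g at 0. WT replicate 1 held the highest sums of macrophages, B and plasma cells and neutrophils. Adrenal cortex markers summed to 4.06 to 10.1 CPM, with Cyp11b1 and Cyp11b2 at 0.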

How the data were processed

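The authors enriched polyadenylated kidney RNA, prepared TruSeq libraries and sequenced pairs of 150-base reads, and trimmed them with Trimmomatic. Per the submitters' processing notes, HISAT2, featureCounts and mm10, the same assembly as GRCm38, were used, with versions and annotation release not given in the sources used here. The deposited values are whole-number counts of uniquely mapped pairs per Ensembl gene, not normalized. The methods describe a strand-specific library instruction and the labels do not, and whether counting used strand was not stated. Genes whose exon bases all overlap other genes, on either strand, were nearly all at 0, which is what counting without strand gives. Molecular identifiers were not described. Of 54532 IDs, 54495 matched GENCODE M21 and 37 did not.

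Differences were tested in edgeR 4.0.16 (R 4.3.3) with filterByExpr (minimum count 10, minimum total 15), TMM factors, the two-sided quasi-likelihood F test and Benjamini-Hochberg adjustment over 14908 genes. Genotype was the only term, and calls were made at an adjusted p under 0.05. The common biological coefficient of variation was 0.304. Fold changes used a prior count of 0.125, and SE was taken as the size of the log2 fold change over the root of the F statistic. Promoter windows came from RefSeq and transcripts from GENCODE M21.

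The 10 genes and the 21 lists set beside them were chosen with earlier results of these data known. Genes named were the 10, Zbp1, close relatives, from each list up to 4 genes per direction with an unadjusted p under 0.05 and the 2 highest per kb, a selection of which is printed, and the 5 genes nearest in pattern to Dnase1. Others were named after their values were seen. Alternatives were other size factors, no filter, the exact test, DESeq2 1.42.0, no mitochondrially encoded genes, a replicate block, each library left out, and, added after seeing the data, unshared genes only.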

Additional observations from a re-analysis of the deposited data

How the results depend on the processing

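With 2 libraries per genotype, the counts of calls depended on the setting. Over all genes 2 were called, 41 with no filter, 14 with the exact test, 9 with DESeq2, 4 without mitochondrially encoded genes and 11 with the replicate block. With 1 library left out the count ran from 0 (without WT replicate 1) to 37 (without Zbp1-KO replicate 2). For the 10 nucleases the count was 0 in the main fit. Among the alternatives with all 4 libraries, it was 1 with no filter, the exact test, DESeq2 and the replicate block. That gene was Dnase1, which was selected on this contrast, so these calls add no support for its difference. The other 8 tested nucleases were not called in any of the settings with all 4 libraries. Why the count moved between settings was not tested. Other size factors changed neither count. The fit of unshared genes called 2 genes, and it held only 3 of the 9 tested nucleases, Dnase1 not among them, so its count of 0 says nothing of the others. Same-numbered libraries had a correlation of deviations of 0.00399. With 2 libraries per genotype this cannot tell whether the numbers mark pairs. Among other DNases and RNases the count was 0 under every alternative tried.

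The median log2 fold change of −0.10 stayed between −0.11 and −0.09 with all 4 libraries, was −0.13 over the 3 unshared genes and ran from −0.37 to 0.03 with 1 library left out. Dnase1 ran from −1.21 to −1.19 with 4 libraries and from −1.47 (without Zbp1-KO replicate 2) to −0.97 with 1 left out. Without WT replicate 1, Dnase1l1 moved to 0.03 and Rnaseh2b to −0.09. Without Zbp1-KO replicate 1, Dnase2a moved to 0.10 and Samhd1 to 0.14. The lone library of a genotype was then assumed to vary like the others. Depth limited Dnase1l3 and Rnaset2b most.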
